A study of Homo sapiens with 6 samples.

Results

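The 41 genes described here carry a cell through mitosis, from the kinases and cyclins that start it to the motors and scaffolds that cut the daughter cells apart. They were chosen as a list of symbols by function, though with earlier results of these data known. Each symbol was matched to its Ensembl ID, which gave 41 of the 62710 genes in the table. RNA was sequenced from HT1080, an established human fibrosarcoma cell line, in 6 libraries. In 3 libraries the cells were untreated, and in 3 they had received 20 ng/mL IFNβ, a type I interferon, for 24 h. The labels name human IFNβ, as do the study's cell culture methods for its human cell lines, whereas its sequencing methods name mouse IFNβ. The sources used here give no genetic change for either group. The study's methods say of its in vitro work in general that the replicates were independent and biological, while the labels of these libraries only number them, so the p-values measure the spread between these libraries.

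Cells enter mitosis when CDK1, bound to a B-type cyclin, is switched on by CDC25 phosphatases, with PLK1 and the Aurora kinases at its side. Chromosomes are then attached to spindle microtubules through their kinetochores, and the spindle checkpoint holds back the anaphase-promoting complex until every chromosome is attached. Most of these genes are transcribed late in the cell cycle, under control of the MuvB-based DREAM and MMB complexes and of FOXM1, so their RNA is commonly read as a sign of dividing cells. The files hold no measure of cell number or of cell cycle phase. In a bulk sample, fewer cells in mitosis and less RNA of a gene per cell cannot be told apart.

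The promoters of such genes are known for the cell cycle genes homology region, CHR, a short element bound by MuvB complexes, and for CCAAT boxes, bound by NF-Y. RefSeq promoter windows (GRCh38.p14, from 250 bases before to 50 bases after the transcription start) were matched for 35 of the 41 genes. Those of BIRC5, UBE2C, AURKA, TPX2, TTK and FOXM1 were not analysed here. The 100 bases before the start are printed 5′ to 3′ on the gene's strand for 3 genes that were lower after IFNβ (CDC20, MKI67 and KIF11) and for 3 that did not pass the test (CDK1, ESPL1 and KIF4A), because the same elements stand in both sets. Capitals mark TTTGAA, which reads TTCAAA on the other strand, as well as TTTAAA and the rarer TTCGAA, and CCAAT, which reads ATTGG on the other strand. All but CCAAT are forms of the CHR. In MKI67, TTTGAA and ATTGG overlap.
CDC20 (chr1:43358881-43358980, + strand): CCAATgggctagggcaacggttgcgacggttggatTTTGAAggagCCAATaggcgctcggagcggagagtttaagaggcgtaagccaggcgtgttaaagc
MKI67 (chr10:128126424-128126523, - strand): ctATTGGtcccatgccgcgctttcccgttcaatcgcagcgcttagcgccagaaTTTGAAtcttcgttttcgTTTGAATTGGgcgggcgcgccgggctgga
KIF11 (chr10:92593030-92593129, + strand): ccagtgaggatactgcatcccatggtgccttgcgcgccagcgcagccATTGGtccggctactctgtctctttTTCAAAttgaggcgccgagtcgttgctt
CDK1 (chr10:60778378-60778477, + strand): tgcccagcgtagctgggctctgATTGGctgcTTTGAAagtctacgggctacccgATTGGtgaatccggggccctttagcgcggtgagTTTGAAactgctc
ESPL1 (chr12:53268199-53268298, + strand): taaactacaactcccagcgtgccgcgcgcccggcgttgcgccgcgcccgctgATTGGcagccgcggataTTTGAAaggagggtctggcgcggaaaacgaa
KIF4A (chrX:70290004-70290103, + strand): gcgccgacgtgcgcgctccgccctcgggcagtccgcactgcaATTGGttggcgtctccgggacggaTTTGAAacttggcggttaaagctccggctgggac

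CDC20, which activates the anaphase-promoting complex, has a CHR match between a pair of CCAAT boxes. CDK1 has 2 TTTGAA matches and 2 CCAAT matches in the printed stretch before this start. The 100 bases before its other start hold none of these words. In that window TTTGAA and CCAAT lie further upstream. Searched on both strands, TTTGAA was found in the windows of 25 of the 35 genes (71.4%), against 18.2% of the 27305 genes with a window. TTTAAA was found in 13 of the 35 (37.1%), against 14.5% of all genes, and TTCGAA in 3 (8.57%), against 1.82%. At least 1 of these CHR words stood in the windows of 32 of the 35 genes, or 91.4%, against 29% of all genes. The other 3, AURKB, CCNA2 and SPC24, held none of these words, and other forms of the CHR were not searched. CCAAT was found in 29 of the 35 (82.9%), against 39.7% of all genes, and a CHR word together with CCAAT in 26 (74.3%), against 11.7%. The forkhead word TGTTTAC stood only in the windows of CDK1, 1 of the 35 (2.86%), against 4.19% of all genes. A match is a run of letters and not a bound site, and genes with several starts had several windows.

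The CHR words could not separate the mitosis genes by their change, because nearly all genes with a window held such a word. They were present in 16 of the 18 genes with a window that were lower after IFNβ, in 15 of the 16 that did not pass the test, and in CDC25B, the 1 gene with a window that was higher. The map of the windows shows both elements in genes from the largest fall to the largest rise.

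**Figure D1:**
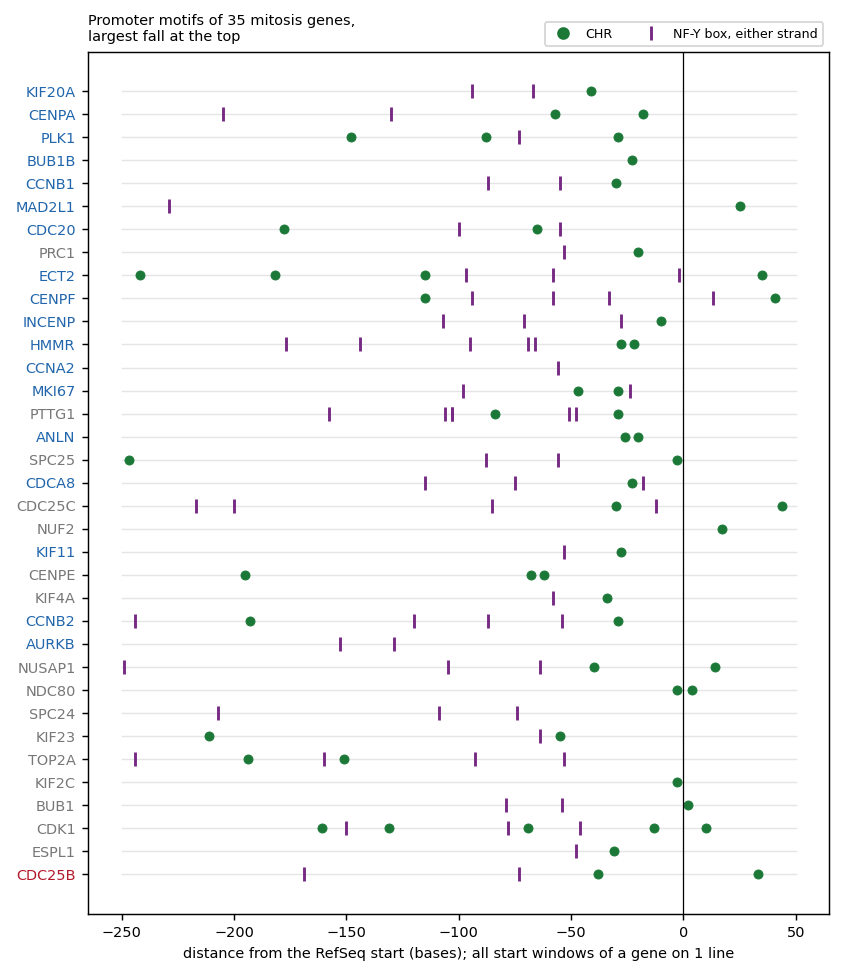
Positions of CHR words (green points) and of the CCAAT box bound by NF-Y (purple ticks) in the promoter windows of 35 mitosis genes, in bases from the RefSeq start. Genes run from the largest fall at the top to the largest rise at the bottom, with names in blue for lower, red for higher and grey for genes that did not pass the test; 32 of the 35 genes have a CHR word, at both ends of the order.

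The authors deposited FPKM, the number of fragments scaled by the length of the gene and by the fragments of the library. The number of fragments that each library had been divided by was recovered from the values and lay between 22848104 and 32915500. The 41 genes together took 0.680%, 0.654% and 0.674% of the fragments of untreated cells and 0.583%, 0.576% and 0.577% of those of IFNβ-treated cells. Every IFNβ library was below every untreated library. The genes tested at all, 20716, had a mean of at least 0.1 FPKM over the 6 libraries, and all 41 mitosis genes passed this filter. The interferon response genes IFIT1, MX1, ISG15 and OAS1, used to check the labels, were far higher in every IFNβ library, OAS1 at 44.9 to 45.1 FPKM against 0.427 to 0.447. Of the markers that define the cell type, VIM, FN1, SPARC, CD44 and S100A6 of mesenchymal cells had 84.5 FPKM or more in every library. EPCAM, CDH1, KRT5, KRT14, PTPRC, CD3E and HBB, of epithelial and blood cells, had at most 6 fragments in any library. Of the endothelial markers, PECAM1 had up to 75 fragments in a library and 0.188 to 0.327 FPKM, and CDH5 and VWF had up to 17 and 12 fragments.

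After 24 h of IFNβ, 23 of the 41 mitosis genes were lower, 2 were higher and 16 did not pass the test (limma on log2(FPKM + 0.1), Benjamini-Hochberg adjusted p under 0.05 over all genes tested). Of all genes tested, 17.5% were lower and 15.2% were higher by the same rule, against 56.1% of the mitosis genes lower. Genes at higher levels were called more often. Among the 4419 genes that averaged at least 10 FPKM, 41.6% were lower and 22.5% were higher, and of the 38 mitosis genes at that level 23 were lower and 2 were higher. The median log2 fold change was -0.18 over the 41 genes, 0.00 over all genes tested, and -0.07 over all genes with at least 10 FPKM.

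The changes were small. The log2 fold changes of the 41 genes lay between -0.50 (KIF20A) and 0.12 (CDC25B), 35 of them negative and 6 positive. None of the 41 genes reached a log2 fold change of 1 in size in either direction, which 4.22% of all genes tested did together with the adjusted p. Among the 23 lower genes, 7 had a log2 fold change of -0.40 or less (KIF20A, BIRC5, UBE2C, CENPA, PLK1, BUB1B and CCNB1), 10 lay between -0.40 and -0.20, and 6 were above -0.20. For 28 of the 41 genes all 3 IFNβ libraries were below all 3 untreated libraries, against 24.3% of all genes tested. For CDC25B and TTK they were all above, against 22.3%. Neither share was computed for genes with at least 10 FPKM alone, which were called more often.

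**Figure D2:**
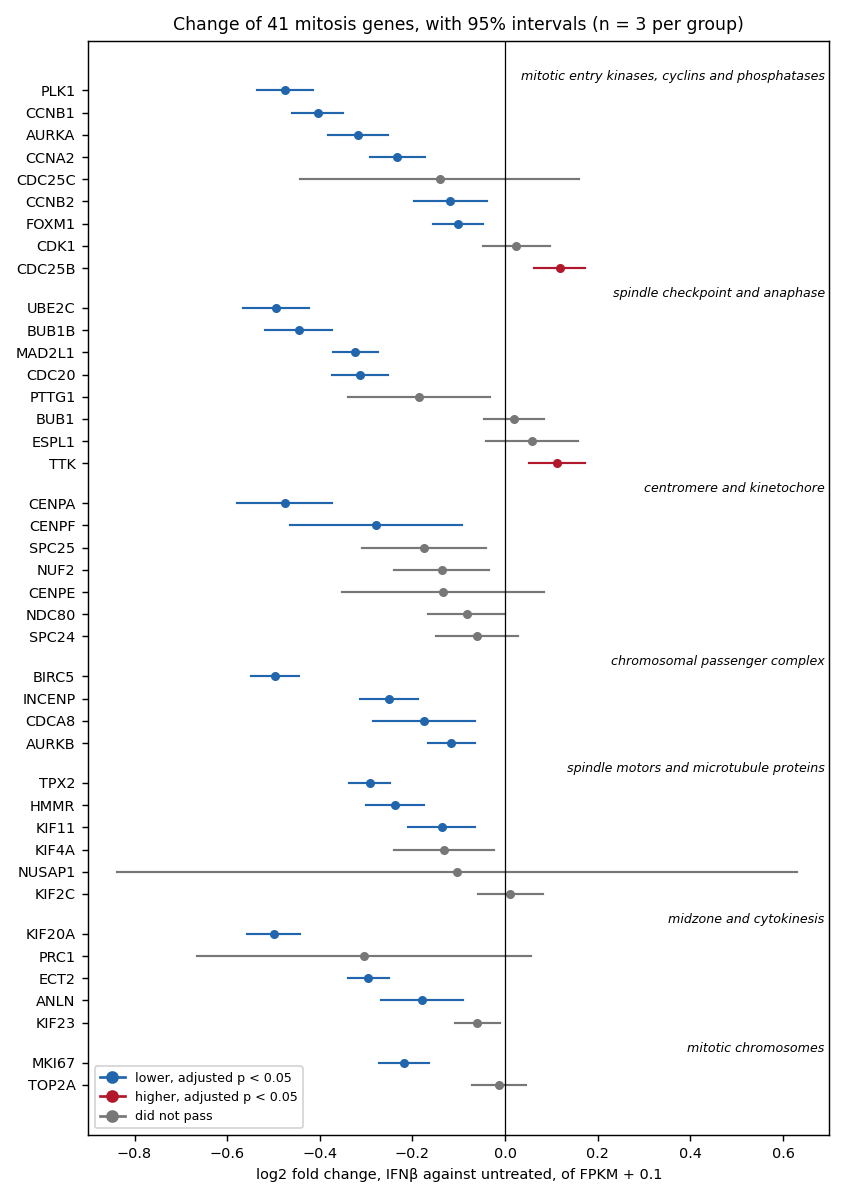
Log2 fold change of FPKM + 0.1, IFNβ against untreated, for each of the 41 mitosis genes by role, with its 95% interval from limma (n = 3 libraries per group). The 23 lower genes are blue, the 2 higher genes are red and the 16 genes that did not pass are grey; the longest intervals belong to NUSAP1, PRC1 and CDC25C, the 3 genes under 10 FPKM.

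The kinases, cyclins and phosphatases of mitotic entry were mostly lower, with 6 of 9 lower, 1 higher and 2 that did not pass. PLK1 (ENSG00000166851, chromosome 16 from 23677656 to 23690367), the Polo-like kinase that acts at centrosomes, kinetochores and the midzone, had 49.4, 47.8 and 50.7 FPKM untreated and 35.7, 35.4 and 35.1 FPKM after IFNβ. The groups did not overlap, and the IFNβ libraries were close to each other. The mean fell from 49.3 ± 1.44 to 35.4 ± 0.310 FPKM (S.D. over 3 libraries each), with a log2 change of -0.48 with a standard error of 0.03 (limma adjusted p = 4.0e-05).

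CCNB1 (ENSG00000134057, chromosome 5 from 69167010 to 69178245), cyclin B1, the main partner of CDK1 at mitotic entry, was at 107.5, 107.9 and 105.6 FPKM untreated and at 78.6, 81.4 and 82.5 FPKM after IFNβ. Its groups did not overlap, with a log2 change of -0.40 with a standard error of 0.02 (limma adjusted p = 5.2e-05). CDK1 itself (ENSG00000170312, chromosome 10 from 60778331 to 60794852) had 32.4, 31.3 and 32.6 FPKM untreated and 32.7, 31.6 and 33.6 FPKM after IFNβ. These groups overlapped, and the 95% interval of its log2 fold change of 0.02 ran from -0.05 to 0.10. The ratio of CCNB1 to CDK1, in FPKM, was 3.34 ± 0.107 untreated and 2.48 ± 0.0887 after IFNβ (S.D. over 3 libraries each).

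The other lower genes of this group were AURKA, the centrosomal Aurora kinase (log2 fold change -0.32), CCNA2, cyclin A2 (-0.23), CCNB2, cyclin B2 (-0.12), and FOXM1, the forkhead factor that drives late cell cycle genes (-0.10). CCNB2 lost its call in 5 of the 6 fits that left out a library, with limma adjusted p-values of 0.063 to 0.096, keeping it only without untreated library 3. FOXM1 lost it without IFNβ library 3 (limma adjusted p = 0.052). Of the phosphatases that switch CDK1 on, CDC25B was higher and CDC25C did not pass. CDC25B (ENSG00000101224, chromosome 20 from 3786772 to 3806121) had 33.4, 32.5 and 33.2 FPKM untreated and 35.5, 36.7 and 35.4 FPKM after IFNβ. Every IFNβ library was higher, with a log2 change of 0.12 with a standard error of 0.02 (limma adjusted p = 0.0086). CDC25C was at 3.32 ± 0.595 against 2.98 ± 0.194 FPKM (S.D. over 3 libraries each). Untreated library 1 stood above the rest at 4.01 FPKM, and without it the log2 fold change of CDC25C went from -0.14 to -0.002.

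**Figure D3:**
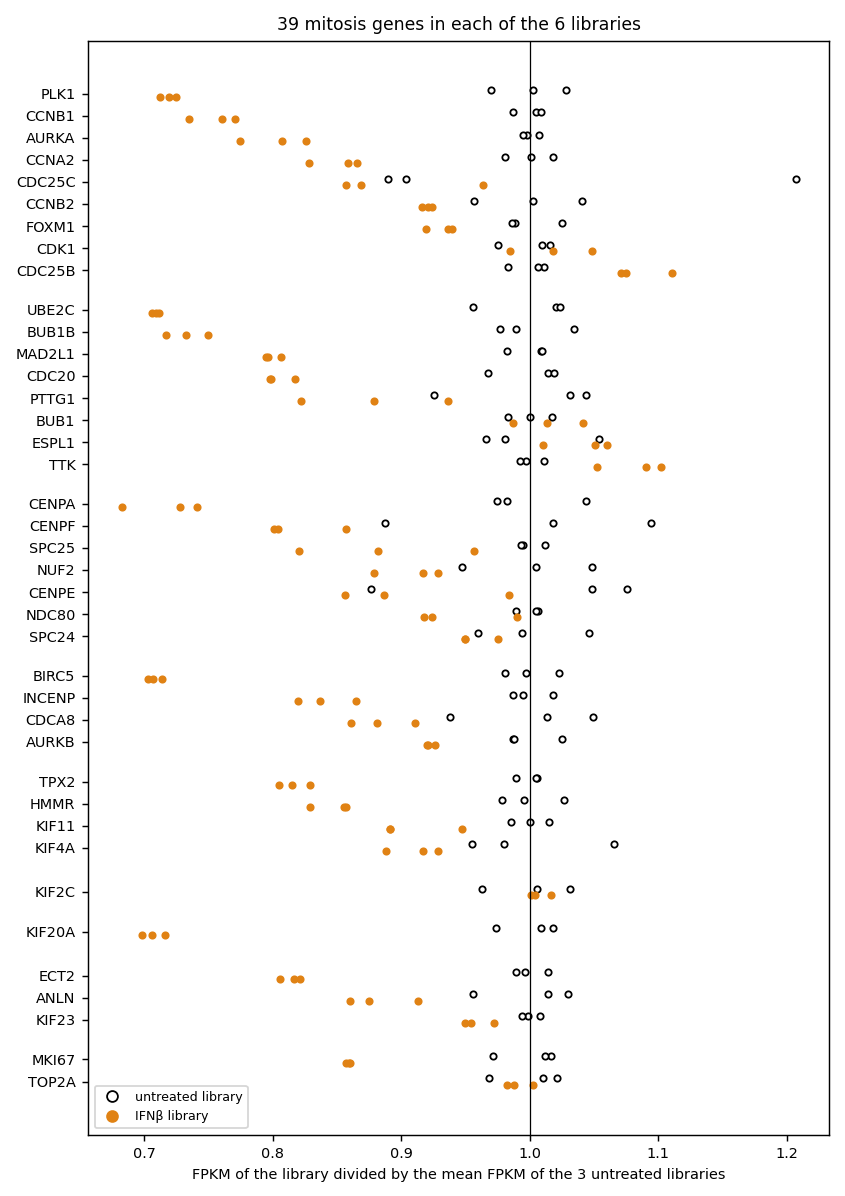
FPKM of each library divided by the mean of the 3 untreated libraries, for 39 mitosis genes (PRC1 and NUSAP1, under 1 FPKM, are left out). Open circles are untreated and filled orange circles IFNβ libraries; PLK1, UBE2C, BUB1B, BIRC5 and KIF20A have wide gaps between the groups, while CDK1, BUB1, KIF2C and TOP2A overlap.

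Of the 8 genes of the spindle checkpoint and anaphase, 4 were lower, 1 was higher and 3 did not pass. UBE2C (ENSG00000175063, chromosome 20 from 45812576 to 45816957), the ubiquitin-conjugating enzyme of the anaphase-promoting complex, had 74.6, 79.6 and 79.9 FPKM untreated and 55.1, 55.5 and 55.4 FPKM after IFNβ. The gap between the groups was far wider than the spread within either. Its log2 change was -0.50 with a standard error of 0.03 (limma adjusted p = 6.4e-05). CDC20 was the most abundant of the 41 genes in FPKM and fell from 154.6 ± 4.40 to 124.4 ± 1.69 FPKM (S.D. over 3 libraries each). MAD2L1, the checkpoint protein that holds CDC20 inactive, had a log2 fold change of -0.32.

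The checkpoint kinases went different ways. BUB1B, or BubR1, a part of the inhibitory checkpoint complex, fell from 28.6 ± 0.868 to 20.9 ± 0.464 FPKM (S.D. over 3 libraries each), a log2 fold change of -0.45. Its paralog BUB1, which recruits checkpoint proteins to kinetochores, had a log2 fold change of 0.02 with an interval of -0.05 to 0.08. The ratio of BUB1B to BUB1 in FPKM was 1.23 ± 0.0387 untreated and 0.891 ± 0.0223 after IFNβ (S.D. over 3 libraries each). TTK (ENSG00000112742, chromosome 6 from 80003887 to 80042527), the MPS1 kinase that starts checkpoint signalling, had 17.3, 17.6 and 17.2 FPKM untreated and 18.3, 18.9 and 19.1 FPKM after IFNβ. All its IFNβ libraries were higher, with a log2 change of 0.11 with a standard error of 0.02 (limma adjusted p = 0.015). TTK lost its call without untreated library 3, IFNβ library 2 or IFNβ library 3, with limma adjusted p-values of 0.053 to 0.056.

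PTTG1 and ESPL1, securin and the separase it inhibits, did not pass. PTTG1 had a log2 fold change of -0.19 with an interval of -0.34 to -0.03, and passed as lower without untreated library 1 or IFNβ library 3 (limma adjusted p = 0.027 and 0.049). It has near-identical intronless copies in the human genome, and how reads matching several places were counted is not given in the sources used here. ESPL1 had 10.8 ± 0.509 FPKM untreated and 11.2 ± 0.285 FPKM after IFNβ (S.D. over 3 libraries each).

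Of the 7 centromere and kinetochore genes, 2 were lower and 5 did not pass, although all 7 log2 fold changes were negative. CENPA (ENSG00000115163, chromosome 2 from 26764289 to 26801067), the histone H3 variant that marks centromeres, had 15.0, 15.1 and 16.0 FPKM untreated and 10.5, 11.2 and 11.4 FPKM after IFNβ. The groups did not overlap. Its log2 change was -0.48 with a standard error of 0.04 (limma adjusted p = 3.6e-04). CENPF, a large protein of the outer kinetochore, was lower by -0.28 on the log2 scale (limma adjusted p = 0.034), with untreated libraries spread from 27.8 to 34.3 FPKM. It lost its call in each fit that left out a library other than untreated library 2 (limma adjusted p = 0.057 to 0.10).

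The NDC80 complex, which grips the microtubule end, is made of NDC80, NUF2, SPC24 and SPC25. None of these 4 genes passed, with log2 fold changes of -0.08, -0.14, -0.06 and -0.18. The intervals of NUF2 (-0.24 to -0.03) and SPC25 (-0.31 to -0.04) lay below 0, and their limma adjusted p-values were 0.051 and 0.054. Each passed as lower when a library was left out, NUF2 without untreated library 1, SPC25 without IFNβ library 3 and NDC80 without IFNβ library 1 (limma adjusted p = 0.017, 0.012 and 0.021). CENPE, the kinetochore motor that brings chromosomes to the spindle equator, had 11.6 ± 1.26 FPKM untreated and 10.6 ± 0.774 FPKM after IFNβ (S.D. over 3 libraries each) and did not pass.

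All 4 genes of the chromosomal passenger complex, which corrects faulty attachments and later acts at the midzone, were lower. BIRC5 (ENSG00000089685, chromosome 17 from 78214186 to 78225636), or survivin, had 50.7, 51.6 and 52.9 FPKM untreated and 36.4, 36.9 and 36.6 FPKM after IFNβ. Each IFNβ library was below each untreated library. Its log2 fold change of -0.50 (standard error 0.02) had the lowest limma adjusted p of the 41 genes, 1.5e-05. The scaffold INCENP had a log2 fold change of -0.25, CDCA8, or borealin, of -0.18, and the kinase AURKB of -0.12 (limma adjusted p = 6.9e-04, 0.027 and 0.0068). CDCA8 lost its call without untreated library 1 or 3 or IFNβ library 1 or 3 (limma adjusted p = 0.070 to 0.086).

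Among 6 spindle motors and microtubule proteins, 3 were lower and 3 did not pass. TPX2 (ENSG00000088325, chromosome 20 from 31739271 to 31801805), which activates AURKA and nucleates spindle microtubules, was at 107.5, 105.7 and 107.4 FPKM untreated and at 88.6, 86.1 and 87.1 FPKM after IFNβ. The groups were clearly apart, with a log2 change of -0.29 with a standard error of 0.02 (limma adjusted p = 7.6e-05). HMMR, a microtubule-binding partner of TPX2, had a log2 fold change of -0.24. KIF11, the kinesin that pushes the spindle poles apart, had a log2 fold change of -0.14 and lost its call without IFNβ library 2 or 3 (limma adjusted p = 0.053 and 0.052).

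KIF2C (ENSG00000142945, chromosome 1 from 44739818 to 44767767), or MCAK, the kinesin that takes microtubules apart, had 24.7, 23.1 and 24.1 FPKM untreated and 24.0, 24.4 and 24.1 FPKM after IFNβ. The groups overlapped, with a log2 fold change of 0.01 that turned to -0.02 without untreated library 2. KIF4A, a chromosome-bound kinesin, had a log2 fold change of -0.13 with an interval of -0.24 to -0.02 and did not pass (limma adjusted p = 0.068), but passed without untreated library 2 (-0.16, limma adjusted p = 0.046). Without untreated library 1 its log2 fold change was -0.09.

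Of the 5 midzone and cytokinesis genes, 3 were lower and 2 did not pass. KIF20A (ENSG00000112984, chromosome 5 from 138178719 to 138187715), or MKLP2, the kinesin that carries the passenger complex to the midzone, had 34.8, 33.3 and 34.5 FPKM untreated and 24.1, 24.5 and 23.9 FPKM after IFNβ. The groups did not overlap, and the gap was many times the spread within them. Its mean fell from 34.2 ± 0.801 to 24.2 ± 0.310 FPKM (S.D. over 3 libraries each). Its log2 change of -0.50 with a standard error of 0.02 (limma adjusted p = 2.7e-05) was the lowest of the 41 genes on that scale. ECT2, the exchange factor that switches on RHOA at the division plane, had a log2 fold change of -0.30, and ANLN, or anillin, the ring scaffold, of -0.18 (limma adjusted p = 7.5e-05 and 0.010).

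KIF23, or MKLP1, the motor of the centralspindlin complex, was at 19.4, 19.6 and 19.3 FPKM untreated and at 18.6, 18.9 and 18.5 FPKM after IFNβ. Its groups were apart, yet the log2 fold change was -0.06 and did not pass (limma adjusted p = 0.062). The ratio of KIF20A to KIF23 in FPKM was 1.76 ± 0.0517 untreated and 1.30 ± 0.00386 after IFNβ (S.D. over 3 libraries each).

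PRC1, which bundles midzone microtubules, and NUSAP1, a spindle microtubule protein, were listed far below the other genes, at 0.312 to 0.473 FPKM and 0.106 to 0.279 FPKM. They rest on 43 to 86 and 11 to 23 fragments per library. In GENCODE release 29, 57.6% of the exon length of PRC1 is shared with AC068831.7 on the same strand, and 62.2% of that of NUSAP1 with AC087721.2. The part of this overlap in their low values was not tested. Neither passed, and the log2 fold change of NUSAP1 went from -0.10 to 0.10 without untreated library 1 and to 0.09 without IFNβ library 3. Exons were also shared by BUB1B with BUB1B-PAK6 (10.2%) and by CENPA with SLC35F6 (6.96%) on the same strand, and by FOXM1 with ITFG2 (15.9%), PLK1 with ERN2 and AC008870.3 (12.5%), CCNA2 with EXOSC9 (9.08%) and CDC25C with FAM53C (8.78%) on the other strand. Smaller shares on the other strand were those of PRC1 with PRC1-AS1 (7.35%), KIF20A with BRD8 and CDC23 (5.05%) and further genes. Whether counting used the strand is not given in the sources used here, so fragments in shared exons cannot be told apart.

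**Figure D4:**
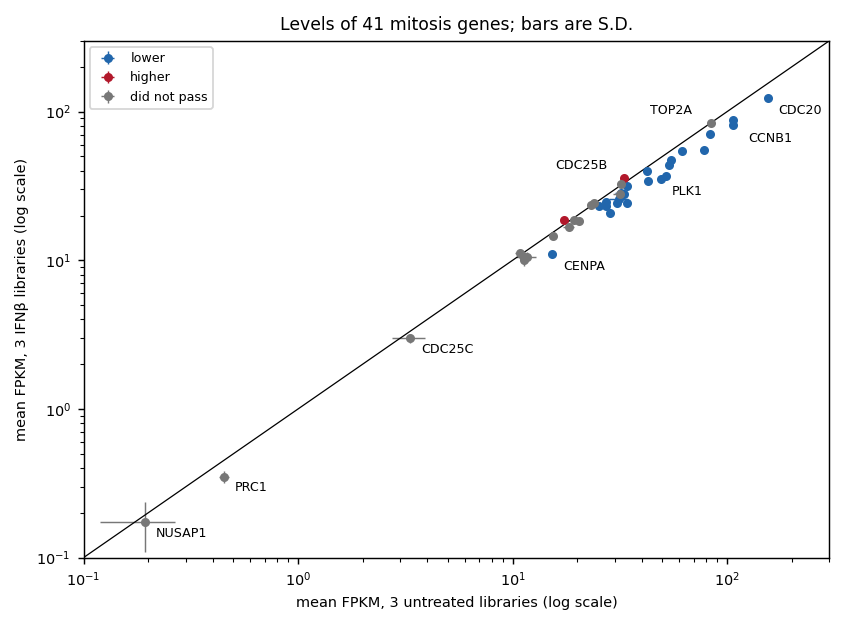
Mean FPKM of the 41 mitosis genes in the 3 IFNβ libraries against the 3 untreated libraries, on log axes, with bars for the S.D. where they exceed the point. The line marks equal levels; genes above 10 FPKM lie close to it, most of them a little below and CDC25B and TTK a little above, CDC20 is highest at 154.6 FPKM untreated, and PRC1 and NUSAP1 are at the lower left, under 1 FPKM.

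Of the genes of mitotic chromosomes, MKI67 was lower and TOP2A did not pass. MKI67 (ENSG00000148773, chromosome 10 from 128096659 to 128126385), the Ki-67 antigen that coats chromosomes and is used as a proliferation marker, had 56.0, 53.5 and 55.7 FPKM untreated and 47.3, 47.2 and 47.3 FPKM after IFNβ. The groups did not overlap, with a log2 change of -0.22 with a standard error of 0.02 (limma adjusted p = 5.9e-04). TOP2A (ENSG00000131747, chromosome 17 from 40388516 to 40417950), the topoisomerase that untangles sister chromatids, had 85.9, 81.5 and 85.1 FPKM untreated and 83.1, 82.7 and 84.4 FPKM after IFNβ. These groups overlapped. Its log2 fold change of -0.01 had an interval of -0.07 to 0.05, and was 0.02 with median ratio scaling, 0.01 with quantile normalization and 0.00 without untreated library 1.

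Pairs of partner genes or of paralogs were compared by their FPKM ratio within each library, for 10 pairs. In 7 pairs the ratio was lower in every IFNβ library, with CCNB1 to CCNB2 at 4.23 ± 0.141 untreated and 3.47 ± 0.0744 after IFNβ, AURKA to AURKB at 1.249 ± 0.0302 and 1.09 ± 0.0389, BIRC5 to AURKB at 1.51 ± 0.0608 and 1.16 ± 0.00998, and UBE2C to CDC20 at 0.505 ± 0.0283 and 0.445 ± 0.00758 (S.D. over 3 libraries each), beside the 3 ratios given above. For each, the two-sided exact permutation p was 0.10, the smallest that 3 against 3 libraries allow, and 0.14 after Benjamini-Hochberg adjustment over the 10 pairs. In each of these 7 pairs the gene with the lower log2 fold change was written first. The shared direction thus follows from that order and restates the changes of the single genes. No share over other pairs of genes was computed. The ratios CDC25B to CDC25C, NDC80 to NUF2 and SPC24 to SPC25 overlapped between the groups. Of the 16 genes that did not pass, 10 had an interval that held 0, among them CDK1, BUB1, KIF2C and TOP2A. The intervals of the other 6 (PTTG1, NDC80, NUF2, SPC25, KIF4A and KIF23) lay below 0.

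No single library carried the difference. The median of 39 genes, leaving out PRC1 and NUSAP1, relative to their untreated means was 1.01, 0.989 and 1.00 without IFNβ and 0.881, 0.865 and 0.879 with it. Between 32 and 34 of the 39 genes were below their untreated mean in each IFNβ library. Among the untreated libraries, library 1 was the highest of its group for 20 genes and library 2 the lowest for 22.

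Other genes of mitosis were counted in 8 lists of 140 genes by function. Leaving out the CDK inhibitors, 65 of the 132 genes tested were lower (49.2%) and 11 were higher (8.33%), with a median log2 fold change of -0.14. Of all genes tested, 17.5% were lower and 15.2% higher. Among genes that averaged at least 10 FPKM the shares were 41.6% and 22.5%. The other kinetochore and centromere genes (34.4% lower) and the other spindle genes (36%) were below that 41.6%. These lists also hold genes under 10 FPKM, so the shares are not like for like. The share of each list among genes with at least 10 FPKM was not computed. Condensin and cohesin, the ring complexes that compact chromosomes and hold sisters together, had the highest share, with 15 of 19 lower and 1 higher. The lowest log2 fold change there was that of STAG1 (-0.58), a cohesin subunit that fell from 12.5 ± 0.541 to 8.31 ± 0.227 FPKM (S.D. over 3 libraries each), and NCAPH2, a subunit of condensin II, was the 1 higher gene (log2 fold change 0.32).

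Of the anaphase-promoting complex and its regulators, 9 of 17 were lower and 2 were higher. UBE2S, which extends the ubiquitin chains that UBE2C starts, had the largest fall (log2 fold change -0.45), and the subunit CDC23 the largest rise (0.14). Of the other kinetochore and centromere genes 11 of 32 were lower and 2 were higher, with CENPW at -0.37 and KNTC1 at 0.14 on the log2 scale. Of the other spindle genes 9 of 25 were lower and 1 was higher, with HAUS2, an augmin subunit, at -0.57 and CKAP2 at 0.10. Of the other cytokinesis genes 6 of 10 were lower and 1 was higher. KIF13A had a log2 fold change of -0.34 and AURKC of 1.23, the latter on 5 to 30 fragments per library.

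Among the other kinases and regulators of mitotic entry, 9 of 16 were lower and 2 were higher. MASTL, the Greatwall kinase, went against the list and had 11.3, 11.5 and 10.9 FPKM untreated and 26.1, 25.6 and 25.9 FPKM after IFNβ. The IFNβ libraries were all far above the untreated ones, with a mean 2.31 times as high (limma adjusted p = 6.8e-07). MASTL phosphorylates ARPP19 and ENSA, which then inhibit the phosphatase that opposes CDK1. ARPP19 fell from 50.2 ± 0.763 to 36.8 ± 0.788 FPKM and ENSA from 27.6 ± 0.589 to 23.0 ± 0.388 FPKM (S.D. over 3 libraries each), and this pair was picked out after its values were seen. CCNF, cyclin F, had the largest fall of the list (log2 fold change -0.46).

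Of the 13 MuvB, DREAM and MMB complex genes, 6 were lower and 2 were higher, with a median log2 fold change of -0.05. TFDP1, the dimer partner of E2F factors, had the largest fall (log2 fold change -0.23), and MYBL1 the largest rise (0.44). Of the 5 CDK inhibitors tested, none was lower by limma, also at an unadjusted p under 0.05, and 2 were higher. CDKN1A, or p21, rose from 72.4 ± 2.92 to 84.2 ± 1.30 FPKM (S.D. over 3 libraries each), and CDKN1B, or p27, had a log2 fold change of 0.34. CDKN2A and CDKN2B were listed at 0 in all 6 libraries and were not tested.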

How the data were processed

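RNA from 3 untreated and 3 IFNβ-treated HT1080 libraries was sequenced. According to the study's methods, mRNA was enriched and sequenced on an Illumina Novaseq instrument, and a count model was used for the study's own tests. The submitters' processing notes name fastp, HISAT2, StringTie and the build GRCh38. The table deposited by the authors holds FPKM per Ensembl gene and library, so the main test here was on the log scale. Whole fragments were recovered for 99.997% of the 35303 genes above 0 (tolerance 0.01 fragments), and gave a chi-square per degree of freedom between replicates from 1.78 to 3.39, above the 1 of counting error alone.

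Libraries were compared with limma 3.58.1 in R 4.3.3 (lmFit, eBayes with trend) on log2(FPKM + 0.1), which understates the change of low genes, for genes that averaged 0.1 FPKM or more, with Benjamini-Hochberg adjustment over all 20716. The procedure was tested on simulated fragments, with far fewer genes changed than were called in the data. Of the 125 calls there, 20 were false, and 1 of 33 among genes that averaged at least 10 FPKM. It recovered 19 of 50 genes changed 1.25-fold and 23 of 50 changed 1.5-fold. Among genes that averaged at least 10 FPKM it recovered 11 of 13 and 7 of 7. Python 3.11.15, pandas 2.3.3 and scipy 1.17.1 did the other steps. IDs were matched to symbols, and gene positions and exon overlaps are those of GENCODE release 29 on GRCh38, which lacks 4436 of the IDs.

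The 41 genes, the lists, the pairs and the promoter words were chosen with earlier results of these data known. All 41 genes are given. By rule, the lowest adjusted p, largest fall and largest rise of each role are shown by library, other genes of interest likewise, and the called extremes of each further list are named. Alternatives were other pseudocounts, filters, scalings, thresholds, eBayes without trend, a replicate block, limma-voom on the recovered fragments, and leaving out each library. A background of genes with at least 10 FPKM was added after seeing the data. A further cell type marker and a further interferon response gene are not reported here.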

Additional observations from a re-analysis of the deposited data

How the results depend on the processing

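Of the 23 lower genes, 17 were called lower in each of the 16 other fits, and CCNB2, FOXM1, CENPF, AURKB, CDCA8 and KIF11 lost the call in at least 1. The number of mitosis genes called lower was between 18 (eBayes without trend) and 28 (filter at a mean FPKM of 1, under which PRC1 and NUSAP1 were not tested), 27 with limma-voom, and 20 to 23 when a library was left out. It was 17 at an adjusted p under 0.01 and 0 with a log2 fold change of at least 1 in size. The number called higher was 0 for eBayes without trend and with the fold threshold, 1 at an adjusted p under 0.01, and 1 to 2 when a library was left out. Of all genes tested, 2330 were lower and 2011 higher at an adjusted p under 0.01, and 153 and 722 with the fold threshold. The balance of all calls turned with the scaling, from 3625 lower and 3153 higher to 3047 and 3581 with median ratio scaling and to 4121 and 2660 with quantile normalization; under these, 19 and 24 mitosis genes were lower and 2 higher in each. The share of lower genes was 41.6% and of higher genes 22.5% among genes with at least 10 FPKM. The median log2 fold change of the mitosis genes stayed between -0.22 and -0.14, while that of all genes moved between -0.06 and 0.03. The sign changed for KIF2C (-0.016 without untreated replicate 2, the range over the left-out libraries being -0.016 to 0.034), NUSAP1 (0.095 without untreated replicate 1 and 0.086 without IFNβ replicate 3, with a range of -0.262 to 0.095) and TOP2A (0.023 with median ratio scaling, 0.011 with quantile normalization and 0.002 without untreated replicate 1, with a range of -0.036 to 0.002); none of them passed the test, and the cause was not tested. The libraries share only a number: deviations of same-numbered libraries correlated at 0.05, -0.02 and 0.12 across 11996 genes, and with the replicate number as a block 22 mitosis genes were lower and 2 higher, and 3310 and 2759 of all genes. PRC1, NUSAP1 and CDC25C had the fewest fragments of the mitosis genes, at most 86, 23 and 329 in a library. The part of depth in their long intervals was not tested.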
